A study of Saccharomyces cerevisiae with 18 samples.

Results

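The mRNA pool of a diploid yeast hybrid was compared between 6 min after an abrupt temperature shift and the start of the shift, 0 min. Libraries were taken by their labelled time, which left 6 of the 18 libraries of the series, 3 at 6 min and 3 at 0 min, with 1 library per time from each of 3 independent cultures. Features were kept where the reads of both parental alleles, summed over all single nucleotide variants (SNVs) of the feature, averaged at least 20 per library over these 6 libraries. This held for 3010 of 3974 features; 964 features fell below it, 144 of them with no read in the 6 libraries. The last features kept were AMD2/PRP28 and BUB1, with means of 20 and 20.2 reads, and the first left out were YOR296W and YDR222W, with 19.8 each. Of the 3010 features, 2068 were 1 gene and 942 were overlapping genes that the authors had joined, and gene lists used the first kind.

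All cells, at 6 min and at 0 min alike, were the diploid of the laboratory strain BY4716 (BY) and the vineyard strain RM11-1a (RM), and both parents carried rpb1-1, a temperature-sensitive allele of the largest subunit of RNA polymerase II. Cultures grew in rich glucose medium (YEPD) at 24 °C and were brought to 37 °C by adding YEPD of 50 °C. The 6 min aliquots had spent 6 min in the warm culture, and the 0 min aliquots were taken right after the hot medium went in, so that they had met it as well and are not an unheated control. There was no culture with a functional RPB1 and none kept at 24 °C, so the loss of polymerase activity and the heat cannot be told apart in any value here. The shift was meant to stop transcription, so that the later times show mRNA decay.

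In wild-type yeast a shift to this temperature sets off broad programmes of transcription. Heat shock factor Hsf1 drives chaperone genes through heat shock elements, and the zinc finger factors Msn2 and Msn4 drive general stress genes, such as those of trehalose and glycogen, through the stress response element. At the same time yeast stops making ribosome assembly factors, whose mRNAs are short-lived and whose promoters share the PAC and RRPE elements. Ribosomal protein genes form a further coregulated group, bound by Rap1.

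Depth was 1065708, 760473 and 1035682 allelic reads in cultures 1, 2 and 3 at 6 min, and 689547, 963408 and 1180513 at 0 min. Reads are given as CPM, that is counts brought to a common library total with TMM factors over the 6 libraries, a level within the pool. A higher CPM can come from more mRNA of a gene or from less mRNA of others, and fewer cells of a kind and less RNA per cell cannot be told apart. No CPM is corrected for length or number of SNVs, so levels are compared between libraries and not between genes. Changes are log2(6 min over 0 min) from edgeR with culture as a block, with SE and n = 3 libraries per time, and adjusted p values are those of its quasi-likelihood F-test after Benjamini-Hochberg adjustment over the 3010 features. A feature is called at an adjusted p under 0.05.

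After 6 min, 675 features (22.4%) were called higher and 665 (22.1%) lower, together 1340 of 3010 (44.5%). By at least 2-fold, 144 features (4.78%) rose and 173 (5.75%) fell, and by at least 4-fold 42 rose and 31 fell. Of the 1340, 1328 moved the same way in each culture, against 1976 of all 3010. The 1340 were called on these same values, so this count is in part given by the choice. The median called change was 0.54 upward and -0.64 downward, against a median of -0.0014 and quartiles of -0.31 and 0.25 over all 3010. Without culture 3, 421 features were called higher and 455 lower. With library totals in place of TMM factors the median moved to -0.12, and 461 features were called higher and 916 lower, so that 33.5% of calls were upward, against 50.4%.

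Features that rose at least 2-fold held 8.14%, 8.75% and 9.58% of the allelic reads of cultures 1, 2 and 3 at 6 min, against 3.21%, 2.79% and 2.67% at 0 min. Features that fell at least 2-fold held 1.27%, 1.55% and 1.61% at 6 min, against 4.07%, 4.75% and 4.63% at 0 min. The times did not overlap on either measure; the features were picked for their change, so the direction of these shares is given by the choice. The filter keeps some features through 1 time alone: 40 had a 0 min mean under 20 reads, of which 29 were called higher, and 81 had a 6 min mean under 20, of which 45 were called lower. Such a feature could pass mainly by being high at 1 time, so its change is given as a description. Of the genes named below, those kept through 6 min were SSA4, HSP26, HTL1/HSP30, SPI1, CTT1, XBP1, GAC1, MGA1, EUG1 and IDP2. Those kept through 0 min were ARX1, DBP7, IMP4, RPC17, RRN11, BAS1, MIG2, MET6 and YKR075C.

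**Figure D1:**
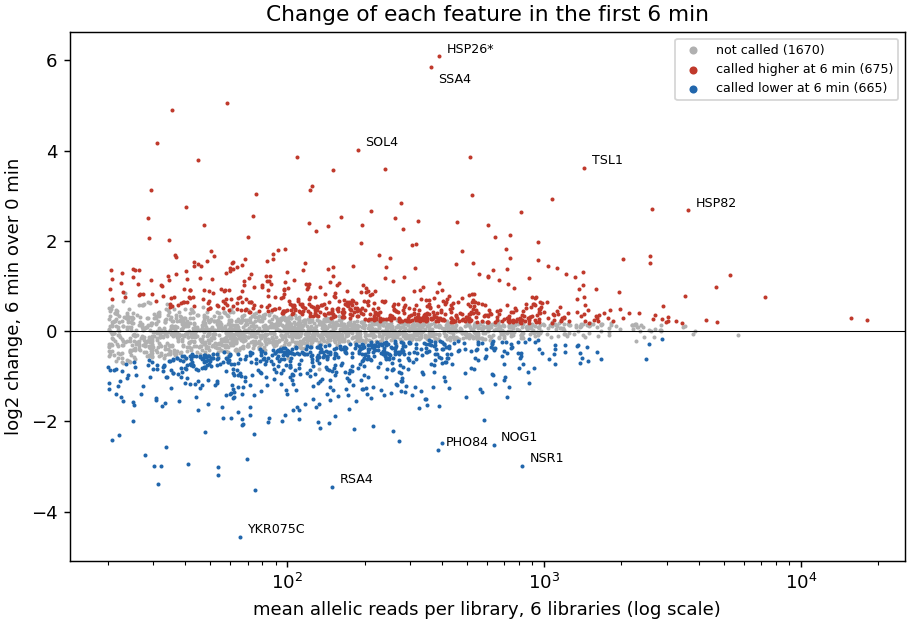
Change of each of the 3010 features (vertical axis, log2 of 6 min over 0 min) against its mean allelic reads per library (horizontal axis, log scale); 675 features called higher are red, 665 called lower are blue, and HSP26* is the feature that joins HSP26 and YBR072C-A. Changes ran from -4.55 for YKR075C to 6.09 for the HSP26 feature, and genes with high counts such as HSP82 and NSR1 were among those far from 0.

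Genes of the heat shock response rose. Of 17 tested genes on a list of Hsf1 targets and cytosolic or mitochondrial heat shock chaperones, 15 were called higher and 1 lower, with a median change of 2.32, against 22.4% higher and a median of -0.0014 over all features. The listed genes together held 4.15%, 4.02% and 4.002% of allelic reads in cultures 1 to 3 at 6 min, against 1.68%, 1.56% and 1.30% at 0 min. One of the 15, SSA4, was kept through 6 min alone, which leaves 14 of 16. The count of 15 higher was the same under all alternatives except a filter at a mean of 100 reads, where 14 of the genes left were called. The lists, here and below, were chosen with earlier results of these data known, so their counts are descriptions.

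SSA4 (YER103W, chrV:364589-366517), the stress-inducible cytosolic Hsp70, had 619, 786 and 935 CPM at 6 min in cultures 1, 2 and 3, against 12.9, 10.9 and 16.6 CPM at 0 min. All 6 min libraries lay far above all 0 min libraries, a 58.1-fold difference (log2 change 5.86 ± 0.12). Its value rests on 1 SNV and, at 0 min, on a mean of 13.7 reads per library, so that it passed the filter through its 6 min reads (a mean of 711.7). The feature that joins HSP26, a small heat shock protein, with YBR072C-A on the other strand had 622, 828 and 1077 CPM at 6 min, against 11.5, 12.9 and 13.4 CPM at 0 min. It changed most of all 3010 features (log2 change 6.09 ± 0.13), but the library kit does not mark strand, so the shares of the joined genes are unknown; the same holds for HTL1/HSP30 (log2 change 5.06 ± 0.26).

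SSE2, an Hsp110 that helps Hsp70 release nucleotide, had 949, 1029 and 1152 CPM at 6 min, against 83, 66.7 and 71.1 CPM at 0 min, with no overlap (log2 change 3.85 ± 0.10, 23 SNVs). HSP82, a cytosolic Hsp90 with the near-identical copy HSC82, had 6862, 6962 and 6685 CPM at 6 min, against 1440.2, 1179.5 and 711 CPM at 0 min. Here the 6 min libraries stood close together, while at 0 min culture 1 was highest and culture 3 lowest (log2 change 2.68 ± 0.14). HSP104, the cytosolic disaggregase, had 4534, 5056 and 5249 CPM at 6 min and 885, 845 and 579.7 CPM at 0 min (log2 change 2.71 ± 0.12), and HSP78, its relative in mitochondria, rose alike (log2 change 2.84 ± 0.12).

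Stretches of 60 bases upstream of these genes show the heat shock element core. They were read from the RefSeq R64 reference (sacCer3) on the strand of the gene, at chrV:364310-364369 (plus strand) for SSA4, chrII:576200-576259 (minus) for SSE2, chrXVI:98827-98886 (minus) for HSP82 and chrXII:88305-88364 (plus) for HSP104, and capitals mark TTCNNGAA or GAANNTTC.
SSA4: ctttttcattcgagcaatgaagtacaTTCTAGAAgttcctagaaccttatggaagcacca
SSE2: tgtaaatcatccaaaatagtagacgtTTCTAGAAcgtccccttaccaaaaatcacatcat
HSP82: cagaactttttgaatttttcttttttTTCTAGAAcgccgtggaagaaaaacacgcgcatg
HSP104: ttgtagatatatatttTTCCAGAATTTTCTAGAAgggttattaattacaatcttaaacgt

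All 4 hold the palindrome form TTCTAGAA, and HSP104 holds 3 overlapping cores in a row. Over the 450 bases from 500 to 51 bases before the start codon, searched on both strands, TTCNNGAA was present in 12 of the 17 tested genes of the list (70.6%), against 19.3% of 2061 single protein-coding genes tested. TTCNNGAA or GAANNTTC was present in 13 of 17 (76.5%), against 32.2% of the 2061, and in 39.3% of the 117 such genes called higher by at least 2-fold and 31.1% of the 132 called lower by at least 2-fold. A match is a description of letters, not of a bound site.

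The other members of the list rose less. HSP42, a small heat shock protein, had 828, 804 and 864 CPM at 6 min, against 198, 208 and 88.5 CPM at 0 min (log2 change 2.41 ± 0.18). BTN2, which helps to sequester misfolded proteins, had 1040.4, 1061 and 1184 CPM at 6 min, against 301, 244 and 128 CPM at 0 min (log2 change 2.36 ± 0.18). For both, as for HSP82, culture 3 was lowest at 0 min by a clear margin and near the others at 6 min, so that its own change was the largest, at 3.27 for HSP42 and 3.20 for BTN2. GRE3, an aldose reductase, rose by 2.43 and OPI10 by 2.32 on the log2 scale. Changes were 1.499 for MDJ1, the J-protein of mitochondrial Hsp70, 1.44 for AHA1, which activates the Hsp90 ATPase, 1.42 for APJ1, a J-protein, and 1.25 for STI1, which links Hsp70 to Hsp90. They were smallest among the called members for the mitochondrial chaperones HSP60 (0.97) and SSC1 (0.77).

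The member called lower was CPR7, a prolyl isomerase that binds Hsp90. It had 182, 163 and 172 CPM at 6 min, against 223, 220.0 and 239 CPM at 0 min, with no overlap (log2 change -0.40 ± 0.09, adjusted p = 0.00332 in edgeR's test). Without culture 3 its call was lost (log2 change -0.36, adjusted p = 0.0552 in edgeR's test). Its paralog CPR6, in a feature joined with YLR217W, had 1286, 1326 and 1022 CPM at 6 min, against 497, 384 and 318 CPM at 0 min (log2 change 1.61 ± 0.09). SGT2, a cochaperone of tail-anchored protein insertion, was not called (-0.06). SSA1, a constitutive Hsp70 in a feature joined with YAL004W and with the near-identical copy SSA2, had 4393, 4235 and 4129 CPM at 6 min and 1888, 1311 and 956 CPM at 0 min (log2 change 1.67 ± 0.12).

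Of 10 tested genes for chaperones and oxidative folding in the endoplasmic reticulum, 3 (30%) were called higher and 0 lower by edgeR, with a median of 0.19. One of the 3, EUG1, was kept through 6 min alone. Of the other 9, 2 were called higher, near the 22.4% of all features. With library totals or in DESeq2, 2 of the 10 were called. KAR2, the Hsp70 of the endoplasmic reticulum, had 2322, 2108 and 2070.2 CPM at 6 min, against 1011, 912 and 734 CPM at 0 min (log2 change 1.30 ± 0.08). CPR5, a prolyl isomerase of that compartment, rose by 0.42, and EUG1, a relative of protein disulfide isomerase kept through 6 min, had a change of 0.71. The misfolded-protein ligase genes HRD1 and HRD3 had changes of 0.03 and -0.14 and were not called.

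Of the Msn2 and Msn4 list of general stress genes 26 were tested and each was called higher, with a median of 2.19 and changes from 0.50 for UGA2 to 4.02 for SOL4, against 22.4% higher and a median of -0.0014 over all features. Of these, 8 were kept by the filter through 6 min alone, and the other 18 were all called higher too. This list too was chosen with earlier results of these data known. The listed genes held 1.47%, 1.78% and 2.05% of reads in cultures 1 to 3 at 6 min, against 0.575%, 0.435% and 0.469% at 0 min. Between 23 and 26 of them were called higher when a culture was left out, and none was called lower under any alternative. MSN2 itself had 85.2, 82.8 and 93.9 CPM at 6 min, against 57.3, 77.6 and 68.7 CPM at 0 min, and was not called (log2 change 0.37 ± 0.16, adjusted p = 0.0815 in edgeR's test).

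The list holds genes of trehalose, a sugar that protects proteins in heat. TSL1, a regulatory subunit of trehalose synthase, had 2272, 3012 and 3398 CPM at 6 min in cultures 1, 2 and 3, against 251, 191 and 271 CPM at 0 min (log2 change 3.61 ± 0.12, adjusted p = 5.52e-11 in edgeR's test). TPS2, the trehalose phosphatase, had 1392, 1689 and 1834 CPM at 6 min and 569.8, 341 and 369 CPM at 0 min, a smaller rise with no overlap (log2 change 1.97 ± 0.15). The synthase subunit TPS1 rose by 1.59 and NTH1, a trehalase, by 1.41, so that genes for making and for breaking trehalose rose together.

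Glycogen genes moved likewise. GSY2, the main glycogen synthase, had 1320.4, 1984 and 2789 CPM at 6 min, against 200.4, 224 and 383 CPM at 0 min (log2 change 2.92 ± 0.09, adjusted p = 3.05e-11 in edgeR's test). GIP2, a likely regulatory subunit of the phosphatase Glc7, had 139.5, 211 and 359 CPM at 6 min, against 25.8, 19.9 and 37.1 CPM at 0 min (log2 change 3.12 ± 0.17). Both had culture 1 lowest and culture 3 highest at 6 min. The second glycogen synthase, GSY1, had 1833, 1187 and 1422 CPM at 6 min, against 1193, 289 and 312 CPM at 0 min; the times overlapped because culture 1 was high at 0 min, and the change was 0.62 in that culture and 2.04 and 2.18 in the others. GLG1, a glycogenin, rose by 1.42, GAC1, a Glc7 subunit, by 1.37 and GDB1, the debranching enzyme, by 1.33.

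Windows of 60 bases upstream of 4 of these genes carry the stress response element, AGGGG or its complement CCCCT, in capitals. They come from RefSeq R64 on the strand of the gene, here plus for all 4, at chrXIII:70431-70490 for TSL1, chrVII:985813-985872 for SOL4, chrVI:107038-107097 for HSP12 and chrXII:660492-660551 for GSY2.
TSL1: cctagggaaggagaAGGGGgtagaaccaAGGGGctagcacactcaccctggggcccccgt
SOL4: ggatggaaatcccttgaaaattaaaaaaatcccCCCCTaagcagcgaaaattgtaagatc
HSP12: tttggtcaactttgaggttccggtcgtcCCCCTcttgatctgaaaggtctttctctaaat
GSY2: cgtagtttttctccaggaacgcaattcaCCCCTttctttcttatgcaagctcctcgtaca

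In the searched 450 bases, TSL1 and HSP12 held 5 such elements each, GSY2 held 2 and SOL4 held 1. The element was present in 22 of the 26 genes (84.6%), against 32% of all 2061 genes searched. It was present in 76.9% of the 117 genes that rose at least 2-fold, against 21.2% of the 132 that fell at least 2-fold. The Hsf1 list held it in 10 of 17 genes (58.8%), and the 60S assembly list in 3 of 35 (8.57%).

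SOL4, a 6-phosphogluconolactonase, had 232, 371 and 551 CPM at 6 min, against 32.9, 16.9 and 26.1 CPM at 0 min (log2 change 4.02 ± 0.20). SPI1, a cell wall protein, had 78.5, 215 and 375 CPM at 6 min, against 14.3, 14.9 and 18.2 CPM at 0 min (log2 change 3.87 ± 0.24). CTT1, the cytosolic catalase, had 34.9, 59.3 and 78.8 CPM at 6 min, against 7.16, 9.95 and 3.95 CPM at 0 min (log2 change 3.13 ± 0.33). SPI1 and CTT1 passed the filter through 6 min, with means of 16 and 6.7 reads at 0 min. None of these 3 genes overlapped between the times, and in each culture 1 was lowest and culture 3 highest at 6 min. HSP12, a small membrane-stabilising protein, had 895, 1748 and 1894 CPM at 6 min and 110.2, 293 and 339.6 CPM at 0 min; there culture 1 was lowest at both times and the 3 changes were alike (3.01, 2.57 and 2.48).

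The transcription factors that follow were named for their change, and no list of such factors was tested; BAS1 and MIG2, described below, fell in level and MSN2 was not called. CIN5, a basic leucine zipper factor, had 624, 1108 and 1332 CPM at 6 min, against 166, 117 and 102 CPM at 0 min (log2 change 3.02 ± 0.22). USV1, a zinc finger factor, had 183, 327 and 401 CPM at 6 min, against 32.9, 23.9 and 23.7 CPM at 0 min (log2 change 3.58 ± 0.20). XBP1, a repressor made under stress, had 101, 126 and 209 CPM at 6 min, against 21.5, 21.9 and 12.6 CPM at 0 min (log2 change 3.03 ± 0.27). In all 3 the change was smallest in culture 1 and largest in culture 3. MGA1, a relative of heat shock factor, had 36.8, 93.8 and 70.7 CPM at 6 min, against 5.73, 3.98 and 2.37 CPM at 0 min (log2 change 4.17 ± 0.35). MGA1 and XBP1 passed the filter through 6 min, with means of 3.7 and 17.7 reads at 0 min.

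**Figure D2:**
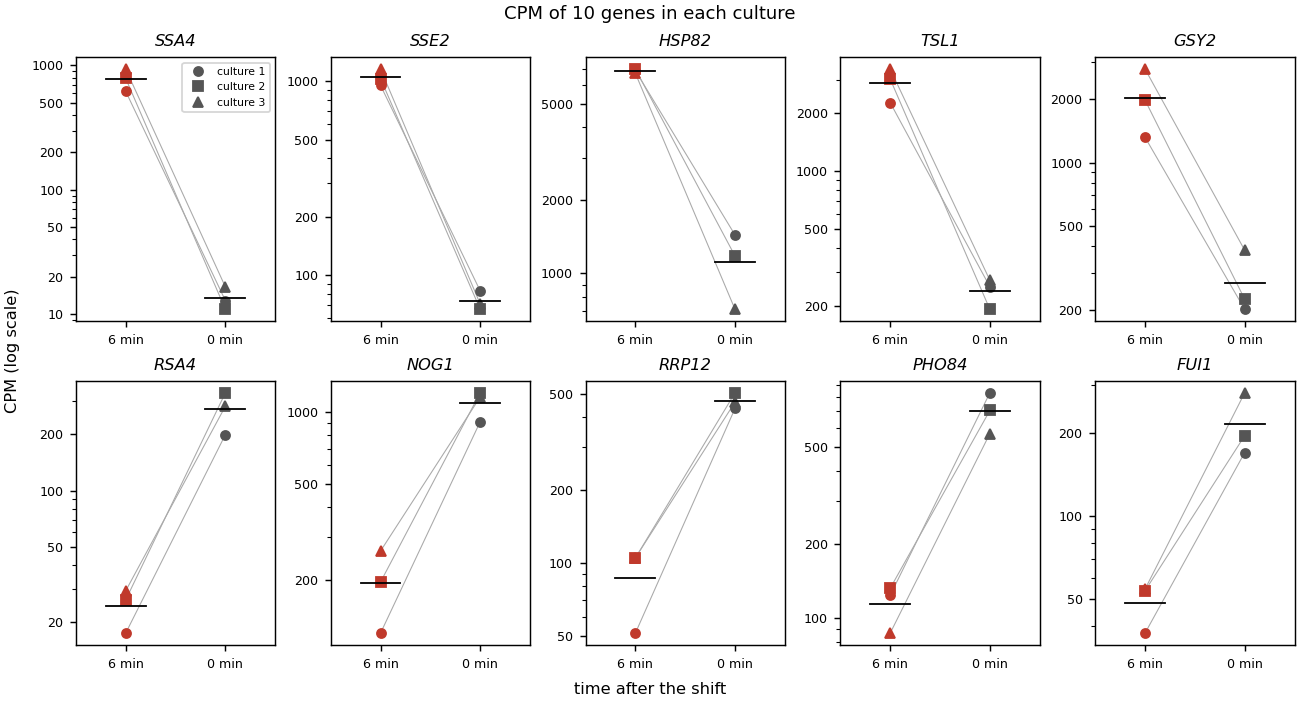
CPM on a log scale of 5 genes that rose (top) and 5 that fell (bottom), with 6 min left of 0 min; symbols mark the 3 cultures, grey lines join a culture's libraries and black bars are means of n = 3. In each panel the 6 min and 0 min levels do not overlap, from 619 or more against 16.6 or fewer CPM for SSA4 to 54.5 or fewer against 170.4 or more CPM for FUI1. The genes were picked with their changes known, so the lack of overlap is in part given by the choice. SSA4 was kept by the filter through 6 min alone.

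Ribosome assembly genes fell. Of 35 tested genes for assembly of the 60S subunit, 34 were called lower and 0 higher by edgeR, with a median change of -1.27, and of 28 genes of the small subunit processome and 40S assembly 26 were called lower and 0 higher, with a median of -1.29. The shares of all features called lower and higher were 22.1% and 22.4%. The 60S list held 0.338%, 0.445% and 0.441% of reads in cultures 1 to 3 at 6 min, against 1.02%, 1.28% and 1.13% at 0 min. The 40S list held 0.297%, 0.376% and 0.374% at 6 min, against 0.782%, 0.951% and 0.840% at 0 min. No member of either list was called higher under any alternative. Both lists were chosen with earlier results of these data known. The filter kept 2 genes of the 60S list, ARX1 and DBP7, and 1 of the 40S list, IMP4, through 0 min alone; of the others, 32 of 33 and 26 of 27 were called lower.

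RSA4 (YCR072C, chrIII:240805-242352), a WD-repeat factor of late 60S maturation, had the largest fall on the lists, with 17.4, 26.2 and 29.3 CPM at 6 min in cultures 1, 2 and 3, against 199, 332 and 282 CPM at 0 min. All 6 min libraries lay far below all 0 min libraries, and the log2 change was -3.45 ± 0.15 (adjusted p = 6.34e-10 in edgeR's test). NOG1, a GTPase of the early 60S particle, had 120.1, 196 and 264 CPM at 6 min, against 909, 1198 and 1152 CPM at 0 min (log2 change -2.51 ± 0.12). DBP7, a DEAD-box helicase, had 8.72, 15.2 and 12.1 CPM at 6 min, against 84.5, 118 and 88.5 CPM at 0 min (log2 change -3.01 ± 0.22). PUF6, an RNA-binding factor of the nucleolus, fell by 2.49 and RRS1 by 2.28 on the log2 scale, and in all 5 genes the times did not overlap. The member of the list that was not called, RSA3, had a change of -0.27.

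RRP12, which acts in export and maturation of the subunits, led the 40S list, with 51.3, 105 and 105 CPM at 6 min, against 435, 505 and 462 CPM at 0 min (log2 change -2.44 ± 0.13). UTP25, a processome protein, had 159, 207 and 209 CPM at 6 min, against 554, 643 and 626 CPM at 0 min (log2 change -1.67 ± 0.08). At 6 min culture 1 was the lowest in both genes, as in NOG1 and RSA4. UTP4 fell by 1.61 and UTP20, a scaffold protein, by 1.51. At the small end stood NOP1 (-0.51), the methylase fibrillarin, and KRR1 (-0.33, not called).

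The nucleolar protein NSR1, in a feature joined with YGR160W, had 95.9, 246 and 241 CPM at 6 min, against 1429, 1578 and 1443 CPM at 0 min (log2 change -2.99 ± 0.17). Culture 1 was the lowest at 6 min by a wide margin.

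For 5 genes that fell, picked because both elements lie there, upstream stretches of 60 bases show PAC and RRPE. They were read from RefSeq R64 on the strand of the gene, and capitals mark PAC (GATGAG or CTCATC) and RRPE (AAAATTTT), at chrXVI:370819-370878 (plus) for NOG1, chrXVI:529532-529591 (plus) for RRP12, chrIX:117744-117803 (minus) for RRT14, chrVIII:210689-210748 (plus) for CIC1 and chrXII:131570-131629 (plus) for DRS1.
NOG1: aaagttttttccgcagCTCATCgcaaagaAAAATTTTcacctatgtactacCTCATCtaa
RRP12: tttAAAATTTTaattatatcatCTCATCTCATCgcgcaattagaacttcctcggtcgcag
RRT14: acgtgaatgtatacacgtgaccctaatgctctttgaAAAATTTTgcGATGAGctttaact
CIC1: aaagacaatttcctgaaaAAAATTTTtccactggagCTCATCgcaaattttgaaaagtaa
DRS1: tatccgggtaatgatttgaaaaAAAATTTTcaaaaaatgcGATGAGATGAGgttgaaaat

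In the 450 bases searched, PAC was present in 32 of the 35 genes of 60S assembly (91.4%) and in 24 of the 28 of 40S assembly (85.7%), against 25.8% of all 2061 genes. RRPE was present in 26 of 35 (74.3%) and 23 of 28 (82.1%), against 14.1%. Of the 132 genes that fell at least 2-fold, 65.9% held PAC, 40.9% RRPE and 35.6% both. Of the 117 that rose at least 2-fold, 23.9% held PAC, 2.56% RRPE and 0.855% both, against 7.28% with both over all genes. The letters and the change did not always go together: UTP4 (-1.61), IPI3 (-1.89) and FCF2 (-2.17), another processome protein, held no PAC in the stretch searched. In windows of 60 bases that are not shown, UTP25 and PWP1 held PAC and no RRPE. Of the 9 aminoacyl-tRNA synthetases, none of which was called lower in edgeR's test, 55.6% held PAC, 77.8% RRPE and 44.4% both, and of the 20 translation factors 25% held PAC, 60% RRPE and 15% both. Other motifs differed less between these sets. CACCCA, the core of the Rap1 site, was present in 11.1% of the genes that rose and 12.9% of those that fell, against 12.5% of all, and TGACTC, the site of Gcn4, in 13.7% and 14.4%, against 13%. ACGCGT, the site of the G1 factor MBF, was present in 1.71% and 4.55%, against 6.02%. Both strands were searched for each, and matches of different motifs may overlap.

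**Figure D3:**
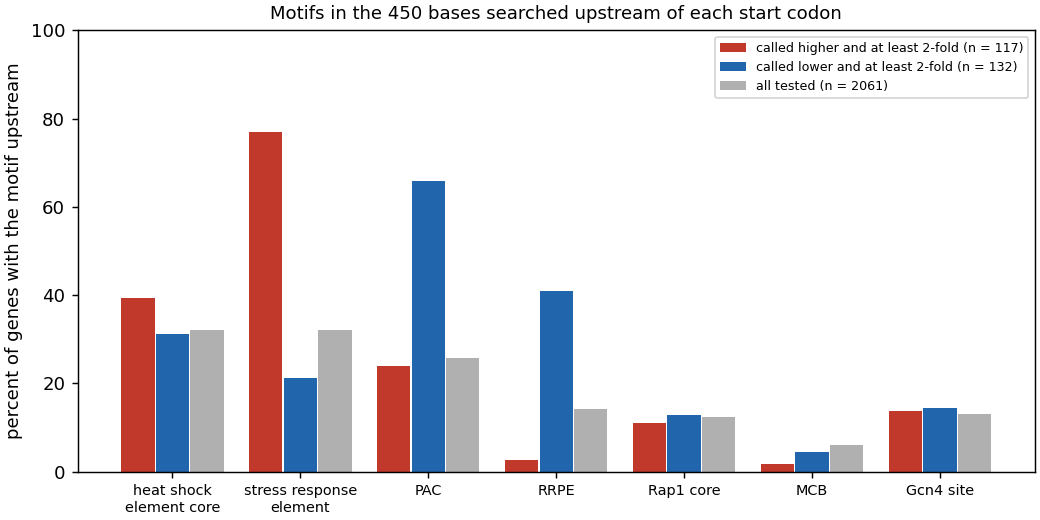
Percent of genes (vertical axis) with each motif in the 450 bases searched upstream, for genes that rose at least 2-fold (red, n = 117), genes that fell at least 2-fold (blue, n = 132) and all single protein-coding genes tested (grey, n = 2061). The stress response element is most frequent in the red set (76.9%), and PAC (65.9%) and RRPE (40.9%) in the blue set.

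Genes for making and modifying stable RNA fell with the assembly factors. Of 18 tested genes for modification and processing of tRNA and rRNA, 17 (94.4%) were called lower and 0 higher by edgeR. The share of all features called lower was 22.1%, and the median of the list was -0.87. DUS1, a dihydrouridine synthase of tRNA, had 48.4, 53.8 and 67.7 CPM at 6 min, against 203, 263 and 243 CPM at 0 min (log2 change -2.04 ± 0.13). NAF1, an assembly factor of box H/ACA RNPs, had 201, 254 and 350.4 CPM at 6 min, against 626, 744 and 837 CPM at 0 min (log2 change -1.46 ± 0.09). DEG1, a pseudouridine synthase of tRNA, fell by 1.31. The times did not overlap in any of the 3. PUS9, a pseudouridine synthase, had a change of -0.29 and was not called.

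For RNA polymerases I and III and their factors, 10 of 14 tested genes (71.4%) were called lower and 0 higher by edgeR. The share of all features called lower was 22.1%, and the median of the list was -0.71. RRN11, a subunit of the core factor of polymerase I, had 17.4, 6.9 and 7.07 CPM at 6 min, against 61.6, 153 and 176 CPM at 0 min (log2 change -3.52 ± 0.35). RRN11 and RPC17 were kept by the filter through 0 min alone, and 8 of the other 12 were called lower. RRN6, of the same factor, had 51.3, 48.3 and 51.5 CPM at 6 min, against 139, 196 and 182 CPM at 0 min (log2 change -1.76 ± 0.15). RPA34, a polymerase I subunit, fell by 1.26, and RPO31, the largest subunit of polymerase III, by 1.25. The larger polymerase I subunits RPA135 (-0.91) and RPA190 (-0.52) fell less. TFC7, RRN10, BRF1 and BDP1 were not called, at -0.07, 0.03, 0.06 and 0.15. Of RNA polymerase II, which holds the mutated subunit, 2 other genes were tested alone and neither was called: RPB7 changed by -0.11 and RPB2 by -0.10.

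Among 20 tested genes of mRNA decay, 8 (40%) were called lower, against 22.1% of all features, and 1 higher, with a median of -0.06; DESeq2 called 3 lower and 0 higher. Of the 8, 5 were subunits or cofactors of the exosome. This group was set apart after the values were seen, and its members that were not called are not counted here. RRP40 had 21.3, 37.3 and 53.5 CPM at 6 min, against 64.4, 107 and 87.7 CPM at 0 min (log2 change -1.19 ± 0.21). CSL4 had 162, 171 and 178 CPM at 6 min, against 276, 329 and 284 CPM at 0 min (log2 change -0.79 ± 0.09). DIS3, RRP6 and RRP4 fell by 1.10, 0.92 and 0.89. Outside the exosome DCP1, the decapping cofactor, fell by 0.85 and CDC39, the scaffold of the deadenylase complex, by 0.52, while the deadenylase CCR4 (-0.06), LSM1 (-0.02), PAT1 (-0.02) and the helicase SKI2 (0.14) were not called. EDC1, which promotes decapping, was the one called higher (log2 change 0.55 ± 0.14); without culture 2 the call was lost (0.44, adjusted p = 0.0545 in edgeR's test).

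**Figure D4:**
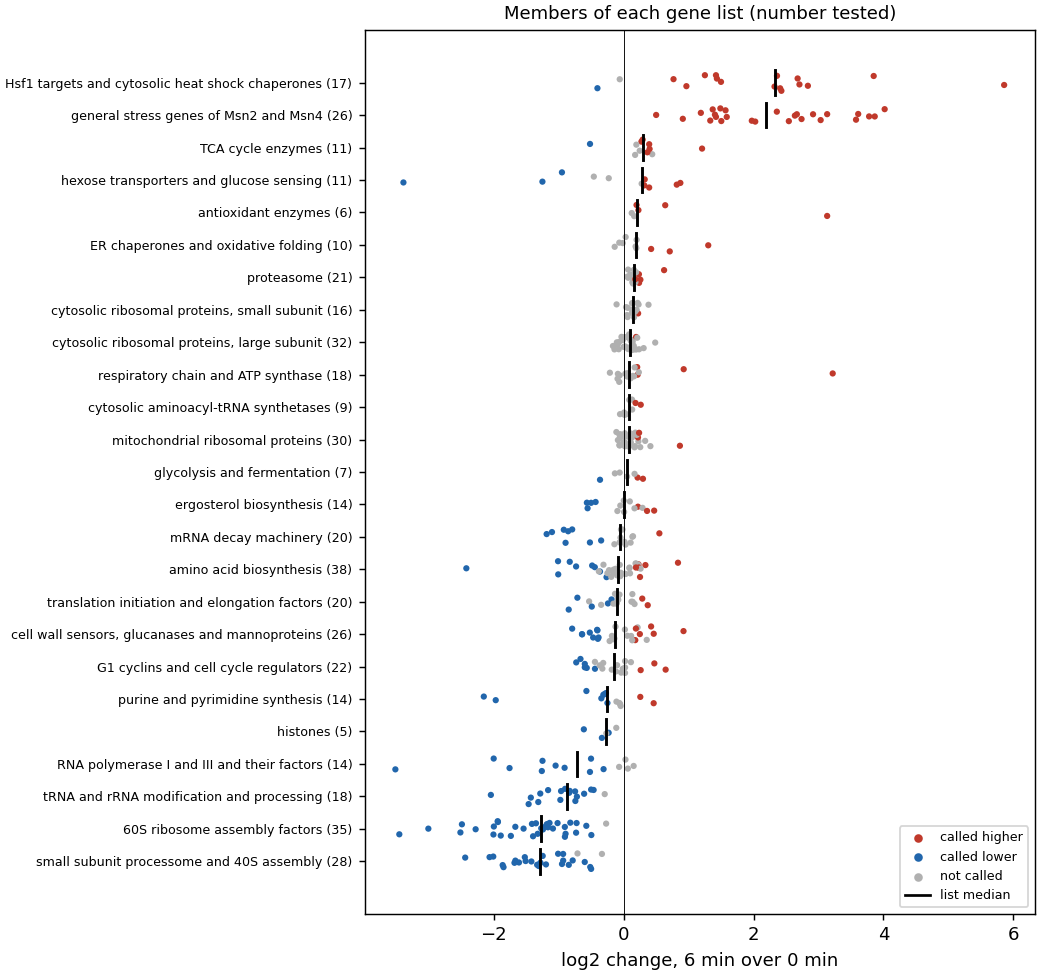
Log2 change of 6 min over 0 min (horizontal axis) of every tested member of 25 gene lists with at least 5 tested members, sorted by median (black bar), with the number tested in brackets; red is called higher, blue lower and grey not called. The Hsf1 and Msn2 and Msn4 lists stand at the top, with medians of 2.32 and 2.19, and the 60S and 40S assembly lists at the bottom, with -1.27 and -1.29; most other medians lie near 0.

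Ribosomal protein genes did not follow the assembly factors. Of 32 tested genes of the large subunit, 1 was called higher and 0 lower by edgeR, with a median of 0.09, and of 16 of the small subunit, 1 was called higher and 0 lower, with a median of 0.15. The shares of all features called higher and lower were 22.4% and 22.1%. Those of the large subunit held 2.01%, 2.01% and 1.85% of reads at 6 min, against 2.15%, 1.93% and 1.87% at 0 min, and those of the small subunit 1.72%, 1.72% and 1.59% at 6 min, against 1.86%, 1.58% and 1.57% at 0 min. The shares overlapped between the times. The sequence of many of these genes is near-identical to a copy, 22 of the 32 and 12 of the 16, so reads may be split between copies. Both called genes, RPL34B (0.19 ± 0.07) and RPS11B (0.22 ± 0.08), lost the call when culture 2 or culture 3 was left out, at 0.18 and 0.18 for RPL34B and 0.18 and 0.19 for RPS11B. Without culture 1, 8 genes of the large and 9 of the small subunit were called higher and 1 of the large lower. With library totals the medians were -0.03 and 0.02, so no direction is given for the group.

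Mitochondrial ribosomal proteins were similar, with 3 of 30 (10%) called higher and 0 lower by edgeR, against 22.4% and 22.1% of all features. Their median was 0.08 (-0.04 with library totals), and without culture 3, 1 was called higher. The clear change on this list was that of MRP8, which was listed by its name, and whether it is a ribosomal protein was not checked. MRP8 had 280.0, 257 and 261 CPM at 6 min, against 160.3, 155 and 126 CPM at 0 min (log2 change 0.87 ± 0.10). Of 9 cytosolic aminoacyl-tRNA synthetases 2 (22.2%, near the 22.4% of all features) were called higher and 0 lower by edgeR (1, 1 and 0 higher without cultures 1, 2 and 3). Their median was 0.09 (-0.03 with library totals), with changes from -0.06 to 0.26. Of 20 translation factors 5 (25%) were called lower and 2 (10%) higher, against 22.1% and 22.4% of all features, with a median of -0.11. With library totals 13 were called lower and 2 higher. Leaving out cultures 1, 2 and 3 gave 4, 3 and 4 lower and 4, 1 and 1 higher. NIP1, a subunit of initiation factor eIF3, had 111, 112 and 93.9 CPM at 6 min, against 176, 198 and 193 CPM at 0 min (log2 change -0.85 ± 0.12). NEW1, a ribosome-associated ATPase, had 1023, 1167 and 1076 CPM at 6 min, against 1757, 1867 and 1725 CPM at 0 min (log2 change -0.71 ± 0.07). TIF4632, an eIF4G, fell by 0.49, and CAM1, a subunit of elongation factor eEF1B, rose by 0.37.

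The permeases PHO84, FUI1 and FCY2 were named for their change, and permeases as a group were not tested. PHO84 (YML123C, chrXIII:24037-25800), the high-affinity phosphate transporter, had 124, 132 and 86.8 CPM at 6 min, against 833, 706 and 568 CPM at 0 min (log2 change -2.63 ± 0.09, adjusted p = 1.03e-10 in edgeR's test). FUI1, the uridine permease, had 37.8, 53.8 and 54.5 CPM at 6 min, against 170.4, 196 and 280.4 CPM at 0 min (log2 change -2.15 ± 0.14). FCY2, the purine and cytosine permease, had 239, 272 and 222 CPM at 6 min, against 972, 861 and 1023 CPM at 0 min (log2 change -1.97 ± 0.10). In all 3 the times were well apart. Of the 14 tested genes of purine and pyrimidine synthesis and uptake, 8 (57.1%) were called lower and 2 (14.3%) higher. The shares of all features were 22.1% and 22.4%, and the list median was -0.26 (4 lower and 1 higher in DESeq2). Without culture 2, 4 were lower and 1 higher, and without culture 3, 7 lower and 1 higher. Changes of the enzymes called were smaller: URA1, dihydroorotate dehydrogenase, fell by 0.57 and URA2 by 0.34, 4 ADE genes fell by 0.25 to 0.31, and ADE16 rose by 0.46. BAS1, a transcription factor of purine genes, had 8.72, 12.4 and 10.1 CPM at 6 min, against 70.2, 105 and 109.8 CPM at 0 min (log2 change -3.18 ± 0.23); it passed the filter through 0 min, with a mean of 9.3 reads at 6 min.

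Glucose genes moved in both directions. Of 11 tested genes for hexose uptake and glucose sensing, 5 (45.5%) were called higher and 3 (27.3%) lower, against 22.4% and 22.1% of all features. Without culture 1 these counts were 5 and 1, and without culture 3, 3 and 4, while DESeq2 called 2 and 1. MIG2, a glucose repressor, had 3.87, 2.76 and 8.08 CPM at 6 min, against 40.1, 84.6 and 48.2 CPM at 0 min (log2 change -3.39 ± 0.35). It passed the filter through 0 min, with a mean of 4.7 reads at 6 min, and without it 5 of 10 were called higher and 2 lower. HXT6 and HXT7, near-identical high-affinity transporters whose reads may be split, rose by 0.87 and 0.82. HXT7 had 759, 635 and 773 CPM at 6 min, against 544, 405 and 311 CPM at 0 min, with no overlap. HXT1, a low-affinity transporter, had 60.1, 92.4 and 76.7 CPM at 6 min, against 252, 136 and 83.7 CPM at 0 min, and MIG3, a relative of MIG2, had 28.1, 31.7 and 28.3 CPM at 6 min, against 145, 59.7 and 26.9 CPM at 0 min. For both, the 0 min level was highest in culture 1, and the change differed between cultures: -2.05, -0.56 and -0.12 for HXT1, and -2.32, -0.89 and 0.07 for MIG3. Without culture 1 neither was called, at -0.37 (adjusted p = 0.097) for HXT1 and -0.47 (adjusted p = 0.148) for MIG3 in edgeR's test. YKR075C, joined with YKR075W-A and of no known function here, had 2.91, 4.14 and 10.1 CPM at 6 min, against 256, 139 and 45.8 CPM at 0 min; it fell in each culture, by 6.04, 4.77 and 2.08, in the same order of cultures.

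Of 7 tested genes of glycolysis and fermentation 2 (28.6%) were called higher and 1 (14.3%) lower, against 22.4% and 22.1% of all features. The list median was 0.05 (-0.07 with library totals), and none was called higher without culture 2 or culture 3. TDH3, a glyceraldehyde-3-phosphate dehydrogenase with the near-identical copy TDH2, had 19676, 19298 and 16544 CPM at 6 min, against 18049, 15132 and 12389 CPM at 0 min. The times overlapped, and the small change (0.30 ± 0.08) was not called without culture 2 (0.27) or culture 3 (0.24). Of 11 genes of the TCA cycle 6 (54.5%) were called higher, against 22.4% of all features, and 1 lower, with a median of 0.29; with library totals 4 were called higher and in DESeq2 3. ACO1, an aconitase, rose by 0.40 and LSC1 by 0.39, while IDP2, the cytosolic isocitrate dehydrogenase, kept through 6 min, had a change of 1.21. Without IDP2, 5 of 10 were called higher. Of 18 genes of the respiratory chain 4 (22.2%, near the 22.4% of all features) were called higher and 0 lower by edgeR, with a median of 0.09 (-0.03 with library totals); without culture 2 or culture 3, 2 were called higher. The ones that stood out are alternative isoforms: CYC7, an isoform of cytochrome c, had 186, 273 and 277 CPM at 6 min, against 14.3, 28.9 and 34 CPM at 0 min (log2 change 3.22 ± 0.16), and COX5B, an isoform of a cytochrome oxidase subunit, had 169, 149 and 176 CPM at 6 min, against 90.2, 80.6 and 89.2 CPM at 0 min (log2 change 0.92 ± 0.13).

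Of 21 proteasome genes 5 (23.8%, near the 22.4% of all features) were called higher and 0 lower by edgeR, with a median of 0.16 (0.04 with library totals) and changes from 0.05 to 0.62; when a culture was left out, 1 to 8 were called, and DESeq2 called 0. RPN4, the transcription factor of proteasome genes, lies in a feature with GPM2 that had 399, 406 and 458 CPM at 6 min, against 185, 183 and 184 CPM at 0 min (log2 change 1.20 ± 0.08). Of 6 antioxidant enzymes 4 (66.7%) were called higher, against 22.4% of all features, and 0 lower by edgeR, with a median of 0.21. Without culture 2 or culture 3, or in DESeq2, 2 were called higher. CTT1 was kept through 6 min alone, and 3 of the other 5 were called higher. Besides CTT1, CCP1, the mitochondrial cytochrome c peroxidase, had 1218, 1178 and 1322 CPM at 6 min, against 839, 746 and 803 CPM at 0 min (log2 change 0.64 ± 0.07).

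Amino acid genes showed no common direction. Of 38 tested, 7 (18.4%) were called higher and 9 (23.7%) lower, near the 22.4% and 22.1% of all features, with a median of -0.08. Without culture 2 the counts were 2 and 9, and without culture 3, 3 and 7. MET6, methionine synthase, had 6.78, 1.38 and 9.09 CPM at 6 min, against 18.6, 17.9 and 60 CPM at 0 min (log2 change -2.42 ± 0.35), on few reads and kept by the filter through 0 min, with a mean of 5.7 reads at 6 min. SAM1, S-adenosylmethionine synthetase, in a feature with VTA1, had 365, 378 and 432 CPM at 6 min, against 1077, 1046 and 1127 CPM at 0 min (log2 change -1.47 ± 0.07). CPA1, a subunit of the carbamoyl phosphate synthetase of arginine synthesis, had 111, 139 and 179 CPM at 6 min, against 170.4, 199 and 348 CPM at 0 min (log2 change -0.73 ± 0.11). Culture 3 had the highest level at both times, so the times overlapped over cultures, while each culture had a fall (-0.61, -0.51 and -0.96). The cystathionine beta-synthase gene CYS4 fell by 0.48, and GDH3, a glutamate dehydrogenase, rose by 0.84.

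Cell cycle genes moved in both directions as well. Of 22 tested, 6 (27.3%) were called lower and 3 (13.6%) higher, against 22.1% and 22.4% of all features, with a median of -0.15. With a mean of at least 100 reads 1 was called in each direction, and without culture 3 none was called lower and 2 higher. CLN3, the upstream G1 cyclin, had 442, 495 and 511 CPM at 6 min, against 301, 358 and 384 CPM at 0 min (log2 change 0.47 ± 0.07). CLN2, a later G1 cyclin, had 69.7, 58 and 55.5 CPM at 6 min, against 73, 78.6 and 152 CPM at 0 min. Its call (-0.73 ± 0.22, adjusted p = 0.0167) rested on culture 3, without which the change was -0.25 (adjusted p = 0.385 in edgeR's test). FKH2, a factor of mitotic genes, fell by 0.66. Of 5 histone genes 3 (60%) were called lower, against 22.1% of all features, and 0 higher by edgeR, with a median of -0.27. HHF1, a histone H4 gene with the near-identical copy HHF2, had 797, 793 and 992 CPM at 6 min, against 1379, 1347 and 1223 CPM at 0 min (log2 change -0.61 ± 0.09). HTA2 and HTB2, for histones H2A and H2B, fell by 0.33 and 0.23, HTB2 without a call when culture 2 was left out (-0.20). Once SNVs outside 2% to 98% BY reads were dropped, 2 of the 5 histone genes were left to test and neither was called; DESeq2 called 1 of 5 lower.

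Cell wall genes moved in both directions, with 9 of 26 (34.6%) called lower, 6 (23.1%) higher and a median of -0.13. The shares of all features were 22.1% and 22.4%. Without culture 2, 9 were called lower and 3 higher, and without culture 3, 5 lower and 2 higher. RLM1, the transcription factor of the cell integrity pathway, had 208, 211 and 222 CPM at 6 min, against 371, 391 and 355 CPM at 0 min (log2 change -0.79 ± 0.08). UTR2, a chitin transglycosylase, had 556, 426 and 356 CPM at 6 min, against 631, 653 and 773 CPM at 0 min (log2 change -0.64 ± 0.13, and -0.39 without culture 3). TIP1, a mannoprotein, had 1839, 2053 and 1824 CPM at 6 min, against 901, 1194 and 937 CPM at 0 min (log2 change 0.92 ± 0.07). The mitogen-activated kinase of that pathway, SLT2, was not called (0.02). Of 14 ergosterol genes 4 (28.6%) were called lower and 3 (21.4%) higher, against 22.1% and 22.4% of all features. Their median was 0.00 (-0.12 with library totals). Without culture 2 or without culture 3, 3 were lower and 1 higher. ERG5, ERG3 and ERG11 of the late pathway fell by 0.57, 0.56 and 0.50. The isoforms of HMG-CoA reductase differed in direction, HMG1 falling by 0.43 and HMG2 rising by 0.36.

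The label of a diploid was checked with genes that a diploid keeps off. Of 24 haploid-specific or mating-type-specific genes, 8 were single-gene features and 1, FAR1, passed the filter (log2 change -0.44, called, but not without culture 2, at -0.36, or culture 3, at -0.41). The listed genes together made up 0.0156%, 0.0092% and 0.0128% of reads in cultures 1 to 3 at 6 min, against 0.0151%, 0.0153% and 0.0175% at 0 min, mostly from FAR1, and GPA1, FUS2, FUS3, BAR1 and AXL1 had at most 12 reads in any library, while SAG1 reached 24 and NEJ1 23. Of 10 meiosis genes in single-gene features, 2 passed the filter and 1, SPS1, was called higher (0.56), which it was not when any culture was left out. These levels overlapped between the times for the haploid list as a whole, and any part of them in the results above was not tested.

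Cultures differed in ways that groups of genes shared. At 0 min, 11 of the 17 genes of the Hsf1 list (64.7%), such as HSP82 and BTN2, were highest in culture 1 and lowest in culture 3, against 19.5% of all features, while SSA4, SSE2 and HSP42 had other orders. At 6 min, 18 of the 26 Msn2 and Msn4 genes (69.2%), such as SPI1, SOL4 and GSY2, were lowest in culture 1 and highest in culture 3, against 23.2% of all features. BDH2, an alcohol dehydrogenase relative, had 229, 461 and 755 CPM at 6 min, against 35.8, 30.9 and 56.9 CPM at 0 min. The residuals of libraries of the same culture correlated across genes at 0.129, 0.179 and 0.226, against -0.137 to -0.0136 for libraries of different cultures. Residuals were taken from the mean of the 3 libraries of a time. Positive values within cultures thus bring negative ones between cultures, which are no independent baseline. Without the culture term, 552 features were called higher and 582 lower.

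Later times place the first 6 min within the course, given here as CPM scaled over all 18 libraries (means of 3 cultures, in the order of time: 0, 6 and 12 min, then 18, 24 and 42 min). At 18 min culture 3 had 74320 allelic reads, the fewest of the 18 libraries, so low levels there rest on few reads. Many stress mRNAs were not yet at their highest. SSA4 averaged 12.3, 717, 1511, 1501, 1446 and 1407 CPM, and GSY2 246, 1864, 4318, 4832, 4777 and 7414 CPM. HSP82 averaged 1017, 6291, 8132, 5699.8, 4989.9 and 8877 CPM, while BTN2 was already near its top at 6 min, with 205, 1007, 862, 592, 494 and 1040.1 CPM. The Msn2 and Msn4 list held 0.493%, 1.77%, 3.20%, 3.71%, 4.05% and 5.44% of reads in that order.

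Most of the fall of the assembly genes took place by 12 min. NOG1 averaged 994, 177, 32.3, 52.9, 63.9 and 16.8 CPM, and the 60S list held 1.14%, 0.408%, 0.106%, 0.069%, 0.0848% and 0.0459% of reads. PHO84, by contrast, averaged 643, 105, 104, 154, 211 and 164 CPM, much the same at 6 and 12 min. Ribosomal protein genes of the large subunit held 1.98%, 1.96%, 1.79%, 1.35%, 1.09% and 0.778%, a decline that began after 6 min. These courses share the 0 and 6 min libraries with the comparison above, and no test was made of the later times.

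**Figure D5:**
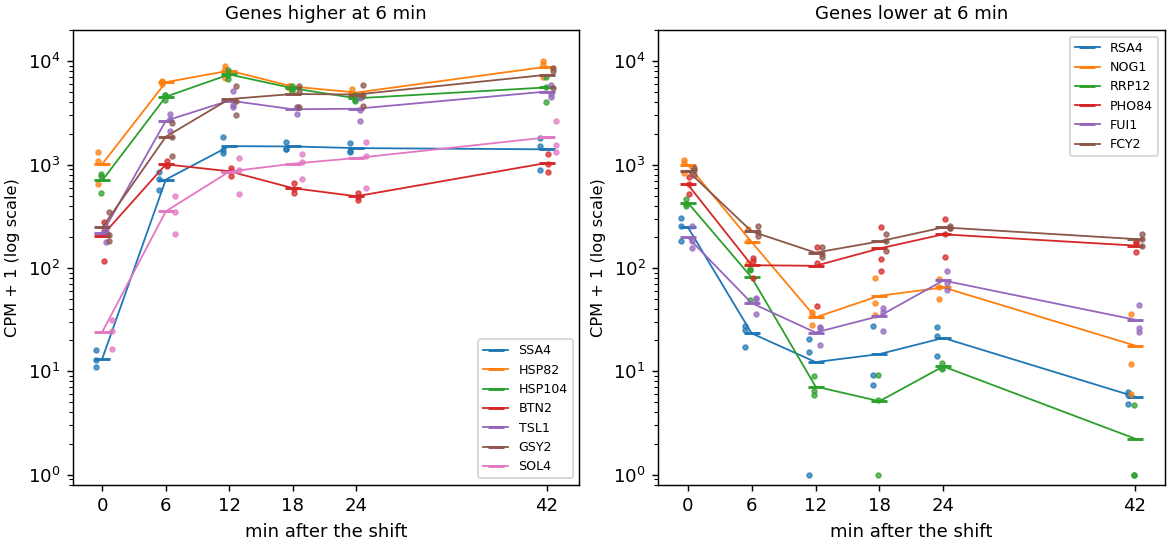
CPM + 1 on a log scale (vertical axis) against min after the shift, 0 to 42 (horizontal axis), of genes that rose at 6 min (left) and genes that fell (right); bars joined by lines are means of 3 cultures and points are single cultures. SSA4 and GSY2 reach higher means at 12 min than at 6 min, BTN2 does not, and NOG1, RRP12 and RSA4 are lower at 12 min than at 6 min while PHO84 is about level.

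The change differed between BY and RM reads for 20 of 2979 features tested (0.671%, edgeR's test with Benjamini-Hochberg adjustment), 10 with the higher change in BY and 10 in RM. EXG1, an exoglucanase of the cell wall, had 290, 164 and 224 BY reads at 6 min, against 308, 380 and 578 at 0 min, and 300, 184 and 215 RM reads at 6 min, against 172, 198 and 283 at 0 min. The BY share of its reads was lower in each culture at 6 min than at 0 min.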

How the data were processed

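Poly(A) RNA of 3 cultures was sequenced as paired reads of 50 bp with a kit that does not mark strand, per the labels' protocols. The deposited files hold read counts for each SNV and parental allele, not normalized; per the file headers, the authors mapped reads to each parental genome, dropped duplicates and joined overlapping genes into 1 feature. The submitters' processing notes list BWA 0.5.9, Picard 1.43 and the build sacCer3. A read over several SNVs may count at each, so intervals from reads cover counting error only.

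BY and RM counts of the 30497 SNVs in the table of the whole series were summed per feature. Abundance was fitted to the 6 libraries in edgeR 4.0.16 (R 4.3.3; TMM, quasi-likelihood F-test, terms for culture and time). Over 3010 features, p values were adjusted by Benjamini-Hochberg, with a threshold of 0.05. The block follows from aliquots of 1 culture being taken at each time, per the labels; same-numbered libraries correlated at 0.129 to 0.226. Cultures are called independent there. No library looked like a second deposit of another. The allele test used the 12 allele columns with library terms and features with a mean of at least 2 reads per allele. Both fits were tested on simulated counts. Alternatives included DESeq2 1.42.0 and limma-voom 3.58.1. Near-identical copies share at least 90% identity over 100 bp in blastn 2.17.0. Plots were drawn with matplotlib 3.10.9 under Python 3.11.15; pandas 2.3.3 handled tables. Gene names, coordinates (1-based) and upstream sequence are those of RefSeq R64, the assembly behind sacCer3.

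Named genes were, per direction, the 10 single-gene features with the largest called change, the same direction in each culture and a mean of at least 100 reads; the 3 such called members of each of 28 lists with the largest change; and MSN2, RPI1, HAP1 and CIN5. HSF1, MSN4 and RPO21 are not analysed here. Further list members, joined features, genes with low counts and those with allele differences were named after their values were seen. The lists, members and tests were chosen with earlier results of these data known. A few list members are not reported here.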

Additional observations from a re-analysis of the deposited data

Results flagged for a closer look

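For 5 genes named here the change at 6 min differed between the parental alleles (edgeR's test of the allele by time term, Benjamini-Hochberg over 2979 features, of which 0.671% passed). Given as the log2 change of BY reads minus that of RM reads, the difference was -2.83 for ENA1, a sodium pump (adjusted p = 3.96e-08). ENA1 had 115, 61 and 108 BY reads at 6 min in cultures 1, 2 and 3, against 94, 127 and 180 at 0 min, and 36, 24 and 27 RM reads at 6 min, against 6, 7 and 4 at 0 min. Its near-identical copies ENA2 and ENA5 may share those reads. The difference was -0.997 for EXG1 (adjusted p = 6.14e-10) and -0.33 for SSA1 (adjusted p = 3.34e-04), which has the near-identical copy SSA2. For SSA1 it was -0.24 without culture 3, with the call lost (adjusted p = 0.0699 in edgeR's test), and -0.21 with all SNVs. It was 0.71 for RPI1, a transcriptional regulator (adjusted p = 0.0157), whose BY reads numbered 174, 144 and 195 at 6 min, against 94, 62 and 122 at 0 min. The RPI1 call was lost without culture 2 (0.46, adjusted p = 0.514 in edgeR's test). For HAP1, a heme-dependent activator, it was 0.51 (adjusted p = 0.0378), with 160, 94 and 154 RM reads at 6 min, against 147, 153 and 159 at 0 min. The HAP1 call was lost without culture 1 (0.41, adjusted p = 0.302) and without culture 2 (0.38, adjusted p = 0.514), and without culture 3 the difference was 0.77 (edgeR's test). When a culture was left out, the count of features that passed ranged from 7 to 23, and without the library terms it was 3, against 20; SSA1, RPI1 and HAP1 were not among the 3.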

How the results depend on the processing

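Against 675 features called higher and 665 lower, DESeq2 called 325 and 334, all of them among those of edgeR, and the deepest SNV alone gave 391 and 390. In DESeq2 lists with small changes had fewer calls: 5 lower and 1 higher for amino acid genes, 0 and 1 for cell cycle genes, 5 and 3 for cell wall genes, 2 and 0 for ergosterol genes and 3 and 0 for translation factors. Leaving out a culture gave 421 to 683 higher and 455 to 721 lower. The other alternatives stayed within 1.5 times of both counts. Without the replicate block, 552 were called higher and 582 lower, and 3 features differed between the alleles, against 20; left-out cultures gave 7 to 23 of these. Of 122 named genes, 86 kept their verdict under each alternative run. Signs turned on few reads or 1 allele: HTB2 (0.77) and HTA2 (0.24) with BY reads only, ENA1 (2.41), EXG1 (0.19) and HAP1 (-0.10) with RM reads only, and HAP1 (-0.017) with the deepest SNV. The cause was not tested. Depth set the precision: the median SE of the log2 change was 0.20 for the 1210 features with a mean under 100 reads and 0.09 for the other 1800.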
